A study of Mus musculus with 27 samples.

Results

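The apolipoprotein genes described here are *Apoa1*, *Apoa2*, *Apoa4*, *Apoa5*, *Apob*, *Apoc1*, *Apoc2*, *Apoc3*, *Apoc4* and *Apoe*, 10 of the 17655 genes in the deposited tables. They were taken by gene symbol, and no measured value entered the choice. Whole livers of 27 mice (9 groups of 3) were profiled by RNA sequencing on the BGISEQ platform, with 1 library for each mouse. Every mouse carried *Kdm5b* fl/fl, a floxed allele of the gene for the histone H3K4 demethylase KDM5B, so the WT mice carried it as well. The groups differ in the adeno-associated virus (AAV) they received: a control vector (WT), AAV-CMV-Cre (KO) or AAV8-TBG-Cre (HepKO). The TBG promoter is directed to hepatocytes, whereas the CMV promoter is not restricted to 1 cell type. WDA is a high-fat Western diet combined with alcoholic drinking water, and 5 groups were studied on it: both sexes of WT and of KO, and females only of HepKO. Their labels give 8 weeks of WDA. The 4 resolution (Res) groups, both sexes of WT and of KO, have labels of 16 weeks of WDA, then the vector, and 4 weeks of resolution. Feeding began at 7 to 8 weeks of age. The methods describe a longer feeding than the WDA labels do, with the vector given at the start of feeding to WDA mice, and to Res mice after a liver biopsy and the return to chow and plain water. Age at collection is not given in the sources used here. Titles of the WDA libraries carry the number 11 and those of the Res libraries the number 12, taken here as 2 experiments. Stage, experiment, length of feeding, diet, age, biopsy and time of the vector therefore cannot be told apart.

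Apolipoproteins are the protein part of lipoproteins, the particles that carry cholesterol and triglycerides in blood, and the liver makes most of them. *Apob* is the structural protein of very low density lipoprotein (VLDL), with 1 copy on each particle. *Apoa1* and *Apoa2* are the main proteins of high density lipoprotein (HDL), and *Apoe* is a ligand through which receptors clear remnant particles. Several small members act on lipoprotein lipase, the enzyme that takes triglycerides out of circulating particles: *Apoc2* is its cofactor, *Apoa5* promotes its action, and *Apoc1* and *Apoc3* restrain it. *Apoa4* is secreted by the intestine and, in mice, also by the liver, where it is known to rise with triglyceride load. *Apoc1*, *Apoc2*, *Apoc4* and *Apoe* are known targets of the cholesterol sensor LXR, the nuclear receptor that the study examined.

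Of the 10 genes, 8 lie in 2 clusters. On the minus strand of chromosome 7 (GRCm38.p6), RefSeq places *Apoc2* at 19671579 to 19677941, *Apoc4* at 19678084 to 19681460, *Apoc1* at 19689480 to 19692659 and *Apoe* at 19696244 to 19701310. On chromosome 9 stand *Apoa1* at 46228630 to 46230469, *Apoc3* on the opposite strand at 46233050 to 46235636, *Apoa4* at 46240844 to 46243458 and *Apoa5* at 46268608 to 46271921. *Apoa2* lies alone on chromosome 1 at 171221564 to 171226379, and *Apob* on chromosome 12 at 7977629 to 8016839. The read-through gene *Gm44805* overlaps both *Apoc2* and *Apoc4* and was given 21 to 75 counts per library, so reads of the pair may have been shared with it. *Apoa2* overlaps the opposite-strand gene *Tomm40l*, which had 29 to 448 counts, and the strand setting of the counting is not given in the sources used here.

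The stretches before the start sites of *Apoa4* and *Apoc2* are printed because these 2 genes had the largest differences between stages. RefSeq promoter windows of 300 bases, most of them before the start site, were available for 8 of the 10 genes, and only bases outside annotated untranslated and coding sequence are shown, 5′ to 3′ on the strand of the gene. Capitals mark CAAAGTTCA in *Apoa4*, an element of the kind bound by HNF4A and related nuclear receptors, and AGGTCA in *Apoc2*, the core element that many nuclear receptors recognise.
*Apoa4*, chr9:46240594-46240695, plus strand: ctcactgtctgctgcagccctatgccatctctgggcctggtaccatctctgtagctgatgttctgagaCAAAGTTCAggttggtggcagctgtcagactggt
*Apoc2*, chr7:19677942-19678082, minus strand: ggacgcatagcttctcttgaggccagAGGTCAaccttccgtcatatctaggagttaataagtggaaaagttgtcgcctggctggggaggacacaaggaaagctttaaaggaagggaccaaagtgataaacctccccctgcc
The capitals begin 182 bases before the start site of *Apoa4* and 115 bases before that of *Apoc2*. The *Apoa4* stretch also lies in an exon of *Gm47528*, annotated on the opposite strand, and the *Apoc2* stretch lies in the read-through gene *Gm44805*. Searched on both strands, CAAAGTTCA occurred in 0.39% of all 32851 promoter windows and, among the apolipoprotein genes, in that of *Apoa4*. AGGTCA occurred in 16.3% of windows, and in those of *Apoa2*, *Apoc2* and *Apoc4*; that of *Apoc2* held 2, the second 42 bases after the start and not shown. A direct repeat of AGGTCA with 4 bases between, the spacing known for LXR, occurred in 0.0152% of windows and in none of these genes' windows. An exact string this rare could hardly occur in so few windows, so its absence gives no result about LXR sites. Letters in a window are a description and show no binding.

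LXR binding at *Apoe* was also measured by chromatin immunoprecipitation (not analysed here), and the primer pair shows which piece of the gene was read.
*Apoe* F: tccatccctgcgaagtggta
*Apoe* R: cacagtccccaagtaacccg
Both primers match chr7:19698593-19698694, a product of 102 bases inside *Apoe* that spans an annotated start site at 19698621 and overlaps an exon with untranslated sequence in GENCODE. The outermost start site among the RefSeq windows, at 19699188, lies further upstream.

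Total counts per library ranged from 14634602 to 19388251, and the lowest count of any of the 10 genes in any library was 2333. *Kdm5b* itself had 16.6 to 31.2 CPM (counts scaled to the total of the library) in WT livers, 10.7 to 24.1 in KO females, 7.93 to 22.0 in KO males and 8.30 to 17.4 in HepKO females. KO and WT values of *Kdm5b* overlapped in WDA females and were separate in the other 3 KO groups, and the exons that Cre removes are not given in the sources used here. In 5 livers the summed level of 5 cholangiocyte markers (*Krt19*, *Krt7*, *Epcam*, *Sox9*, *Cftr*) was 28.6 to 64.6 CPM, against 2.76 to 10.2 in the other 22. These were mouse 7 of the WT WDA females, mouse 17 of the KO WDA males, mouse 13 of the WT Res females, mouse 9 of the WT Res males and mouse 5 of the KO Res males. The same 5 livers had 441 to 1971 CPM of 9 macrophage markers, against 117 to 370 in the others. They were kept in every group, and values without them are given beside results that moved with them. In a whole organ, fewer cells of a type and less RNA per cell cannot be told apart.

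The members were among the most abundant mRNAs of these livers. They took 4.436% to 5.807% of all counts in the 15 WDA livers and 3.335% to 4.056% in the 12 Res livers, ranges that do not overlap. Levels of different genes were compared on the deposited FPKM (fragments per kilobase of transcript, scaled to library size), which takes transcript length into account. On WDA the order of median FPKM was *Apoa2* (20139), *Apoe* (17385), *Apoc1* (14678), *Apoa1* (7713), *Apoa4* (4330), *Apoc3* (3693), *Apoc4* (1577), *Apoa5* (907), *Apoc2* (616) and *Apob* (587). *Apoa2*, *Apoe* and *Apoc1* ranked 2, 3 and 4 among all genes. Neighbours in this order were often not separable, since *Apoa2* exceeded *Apoe* in 9 of 15 livers, *Apoa4* exceeded *Apoc3* in 9 and *Apoc2* exceeded *Apob* in 8. *Apoc1* stood above *Apoa1*, and *Apoc3* above *Apoc4*, with no overlap of their ranges.

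After resolution the same 4 genes stood at the top, with *Apoc1* now before *Apoe*, which it exceeded in 7 of 12 livers. *Apoa2* had a median of 16027 FPKM, *Apoc1* of 12274, *Apoe* of 11703 and *Apoa1* of 7657, ranks 3, 4, 5 and 7 among all genes. *Apoa4* came after *Apoc4*, with medians of 748 and 1352 FPKM, and its rank among all genes was 106, compared with 18 on WDA. *Apoc2*, at 325 FPKM, was below *Apob*, at 503, in 12 of 12 livers, and its rank was 271, compared with 137 on WDA.

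**Figure D1:**
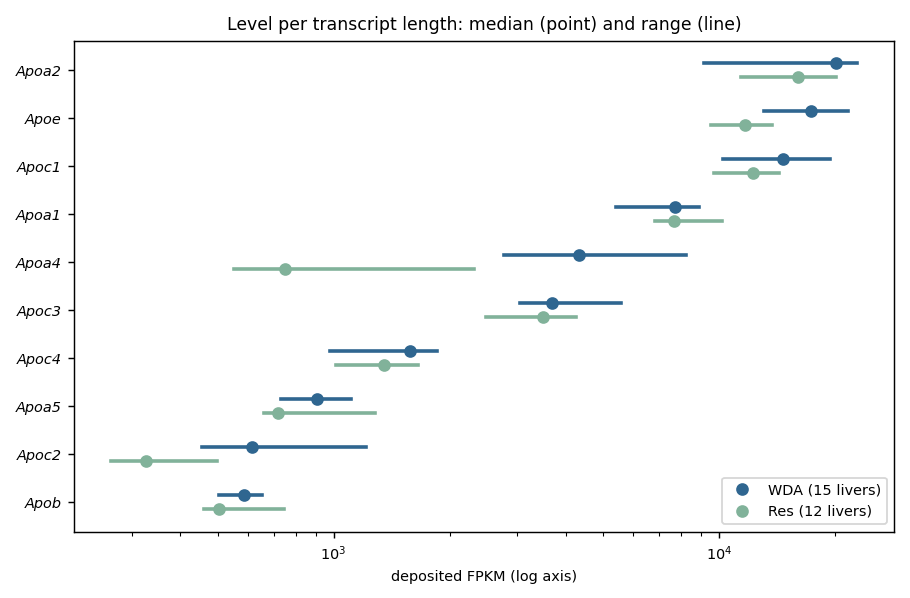
Level of each gene on the deposited FPKM scale (log axis), with the median as a point and the range over livers as a line, for 15 WDA livers and 12 Res livers. The lines of *Apoa4* for the 2 stages do not meet (2771 to 8203 and 550 to 2313 FPKM), whereas those of *Apoa1* largely overlap.

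Across all 27 livers, *Apoa4* varied most, with a standard deviation (SD) of 1.25 on the log2 CPM scale, above that of 97.5% of genes. *Apob* varied least, with an SD of 0.20, above that of 16.9% of genes. *Apoc2* came second with an SD of 0.52, and the spread around the group means was 0.56 for *Apoa4*, 0.23 for *Apoc2*, 0.55 for *Apoa2* and 0.20 for *Apob*. Without the 5 livers with high cholangiocyte markers, the spread around the group means was 0.43 for *Apoa4*, 0.16 for *Apoc2*, 0.25 for *Apoa2* and 0.12 for *Apob*.

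The comparison of Res with WDA asks which genes differ between livers on WDA and livers after resolution, with all that differs between these 2 sets of mice. *Apoa4*, *Apoc2* and *Apoe* were lower in Res, by 2.12, 0.91 and 0.53 on the log2 scale over the 8 WT and KO groups, and 7 members did not pass the test. Fold changes come from edgeR's quasi-likelihood test on the counts, each comparison fitted with its own groups and p-values adjusted by the Benjamini-Hochberg method over all genes tested. In that combined fit, 3 of 10 members were called lower (adjusted p under 0.05), beside 16.2% of all 13186 genes, and the median log2 fold change of the members was -0.25, beside 0.001 for all genes. The 3 fold changes had standard errors (SE) of 0.23 for *Apoa4* (adjusted p = 1.49e-06), 0.10 for *Apoc2* (adjusted p = 1.51e-06) and 0.12 for *Apoe* (adjusted p = 0.00256). These stayed called when any 1 of the 24 libraries was left out.

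**Figure D2:**
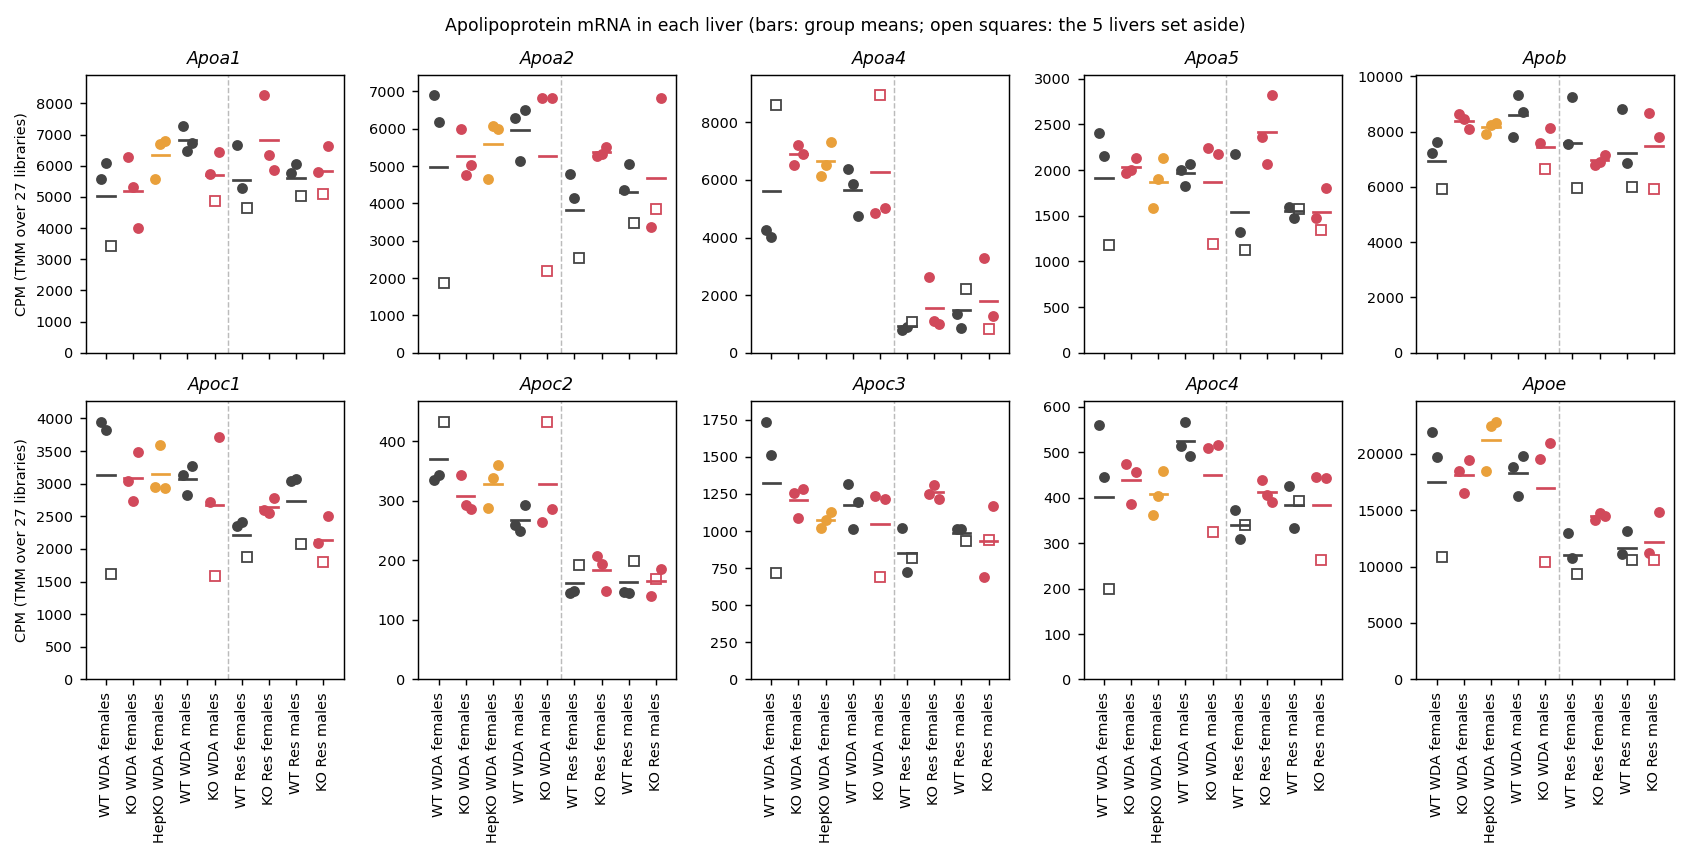
CPM of each gene in each liver, with TMM scaling over all 27 libraries and each axis starting at 0. Points are mice, bars are group means of 3 mice, open squares are the 5 livers with high cholangiocyte markers, and the dashed line separates WDA from Res. For *Apoa4* and *Apoc2* every Res point lies below every WDA point, and the share of all genes of which this holds was not counted. By FPKM, not shown in this figure, the stages overlapped for *Apoc2*.

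*Apoa4* showed the largest difference between stages. On WDA it measured 4002, 4278 and 8600 CPM in WT females, 6536, 6894 and 7223 CPM in KO females, 4757, 5869 and 6370 CPM in WT males and 4869, 5021 and 8945 CPM in KO males, and HepKO females had 6126, 6519 and 7304 CPM. After resolution it measured 791, 881 and 1068 CPM in WT females, 1004, 1088 and 2616 CPM in KO females, 874, 1354 and 2210 CPM in WT males and 807, 1276 and 3279 CPM in KO males. None of the 12 Res livers reached the lowest of the 15 WDA livers. How many of all genes separate the stages in this way was not counted. In the single groups, *Apoa4* was called lower in WT males (log2 fold change -1.91, SE 0.32, adjusted p = 0.0133) and in KO females (-2.13, SE 0.33, adjusted p = 0.0034). It was not called in WT females (-2.62, SE 0.39, adjusted p = 0.184) nor in KO males (-1.79, SE 0.57, adjusted p = 0.667), 2 fits in which 0% of all genes were called. Unadjusted p was under 0.05 for 13.6% of genes in WT females and 6.43% in KO males, and DESeq2 called 347 and 79 genes there. With the spread estimated over all 9 groups, *Apoa4* was called in WT females (adjusted p = 0.00312) and missed the threshold in KO males (adjusted p = 0.0578). DESeq2 called *Apoa4* in WT females (adjusted p = 1.48e-11) and in KO males (adjusted p = 0.0266).

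Mouse 7, 1 of the 5 livers with high cholangiocyte markers, had the highest *Apoa4* of the WT WDA females. Without it, the difference in WT females was -2.17 (SE 0.21, adjusted p = 0.0397), in a fit that called 15 of 12705 genes. The call there in edgeR's own fit thus depended on this liver. Among WT males, the call of *Apoa4* was lost without WDA mouse 20 or 21 (adjusted p up to 0.0548). In KO males without their 2 livers with high cholangiocyte markers, the differences were -1.11 (SE 0.42, adjusted p = 0.507) for *Apoa4* and -0.76 (SE 0.21, adjusted p = 0.351) for *Apoc2*. Without all 5 livers, the *Apoa4* difference over 8 groups was -2.01 (SE 0.22, adjusted p = 2.02e-06).

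*Apoc2*, the cofactor of lipoprotein lipase, showed the second largest difference. On WDA it measured 335, 344 and 432 CPM in WT females, 286, 294 and 343 CPM in KO females, 249, 260 and 294 CPM in WT males, 265, 287 and 433 CPM in KO males and 288, 338 and 360 CPM in HepKO females. In the Res groups the values were 145, 148 and 193 CPM in WT females, 149, 194 and 208 CPM in KO females, 146, 147 and 199 CPM in WT males and 141, 169 and 185 CPM in KO males. By CPM every Res liver lay below every WDA liver, with 208 CPM as the highest of the former and 249 CPM as the lowest of the latter. As for *Apoa4*, the share of all genes so separated was not counted. By FPKM the stages overlapped for *Apoc2*, at 456 to 1211 on WDA and 265 to 498 in Res. The difference was called in WT males (-0.68, SE 0.15, adjusted p = 0.0275) and in KO females (-0.74, SE 0.14, adjusted p = 0.00839). It was -1.19 (SE 0.21, adjusted p = 0.189) in WT females and -0.98 (SE 0.24, adjusted p = 0.573) in KO males. Both were called with the spread shared by 9 groups (adjusted p = 0.00169 and 0.0141) and by DESeq2 (adjusted p = 3.84e-06 and 0.0143). In WT males the call was lost when scaling factors were left out (-0.54, adjusted p = 0.105), in limma on FPKM (-0.60, adjusted p = 0.101), and without any 1 of mice 7, 8, 19, 20 and 21 (adjusted p up to 0.118). Without the 5 livers the difference over 8 groups was -0.88 (SE 0.08, adjusted p = 4.14e-07).

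*Apoe*, the remnant ligand, was lower in Res by a smaller amount. On WDA it measured 10884, 19710 and 21874 CPM in WT females, 16468, 18419 and 19461 CPM in KO females, 16247, 18798 and 19805 CPM in WT males and 10429, 19554 and 20943 CPM in KO males. HepKO females had 18471, 22446 and 22806 CPM. After resolution the values were 9355, 10794 and 12923 CPM in WT females, 14120, 14492 and 14739 CPM in KO females, 10599, 11149 and 13145 CPM in WT males and 10608, 11191 and 14798 CPM in KO males. The stages overlapped through mouse 7 and mouse 17, whose 10884 and 10429 CPM were the only WDA values inside the Res range. Of the single groups, *Apoe* was called in WT males (-0.64, SE 0.14, adjusted p = 0.03). That call was lost with the spread shared by 9 groups (adjusted p = 0.157), in limma on FPKM (adjusted p = 0.161) and without any 1 of the mice other than mouse 9 (adjusted p up to 0.126). Without the 5 livers the difference over 8 groups was -0.56 (SE 0.09, adjusted p = 8.8e-05).

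The neighbours of these genes in the 2 clusters differed less. Beside *Apoc2* on chromosome 7, the 8-group differences were -0.25 (SE 0.13) for *Apoc4*, whose role is less settled, and -0.30 (SE 0.14) for *Apoc1*, with adjusted p = 0.144 and 0.101. Beside *Apoa4* on chromosome 9 they were -0.24 (SE 0.13) for *Apoc3*, -0.17 (SE 0.13) for *Apoa5* and 0.07 (SE 0.12) for *Apoa1*, with adjusted p = 0.175, 0.362 and 0.668. The 95% interval for *Apoa1*, from -0.16 to 0.31, and that for *Apob*, from -0.29 to 0.10, excluded a change of the size seen for *Apoa4* or *Apoc2*. *Apoa2* was at -0.25 (SE 0.20, adjusted p = 0.362).

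The count of members called depended on the livers with high cholangiocyte markers. Without these 5, 6 of 10 members were called lower, beside 19.5% of all genes. The added calls were *Apoc1* (-0.32, SE 0.09, adjusted p = 0.00885), *Apoc3* (-0.31, SE 0.12, adjusted p = 0.0446) and *Apoc4* (-0.31, SE 0.08, adjusted p = 0.00455). Leaving out mouse 7 of the WT WDA females alone gave 5 called members, beside 16.1% of all genes called lower.

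By single groups, 3 of 10 members were called lower in WT males, beside 5.98% of genes, and 2 of 10 in KO females, beside 10.2% of genes. With the spread shared by 9 groups, *Apoa4* and *Apoc2* were called lower in WT females (3.35% of genes were called lower), in WT males (1.17%) and in KO females (6.44%), and *Apoc2* alone in KO males (0.406%). Counted by livers that do not overlap, 7 of 10 members were lower in Res in WT males, beside 19.6% of genes, namely all but *Apob*, *Apoc1* and *Apoc3*. In KO females it was 4 (*Apoa4*, *Apob*, *Apoc2*, *Apoe*), beside 20.3% of genes. It was 2 (*Apoa4*, *Apoc2*) in WT females, beside 10.3%, and the same 2 in KO males, beside 6.13%.

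**Figure D3:**
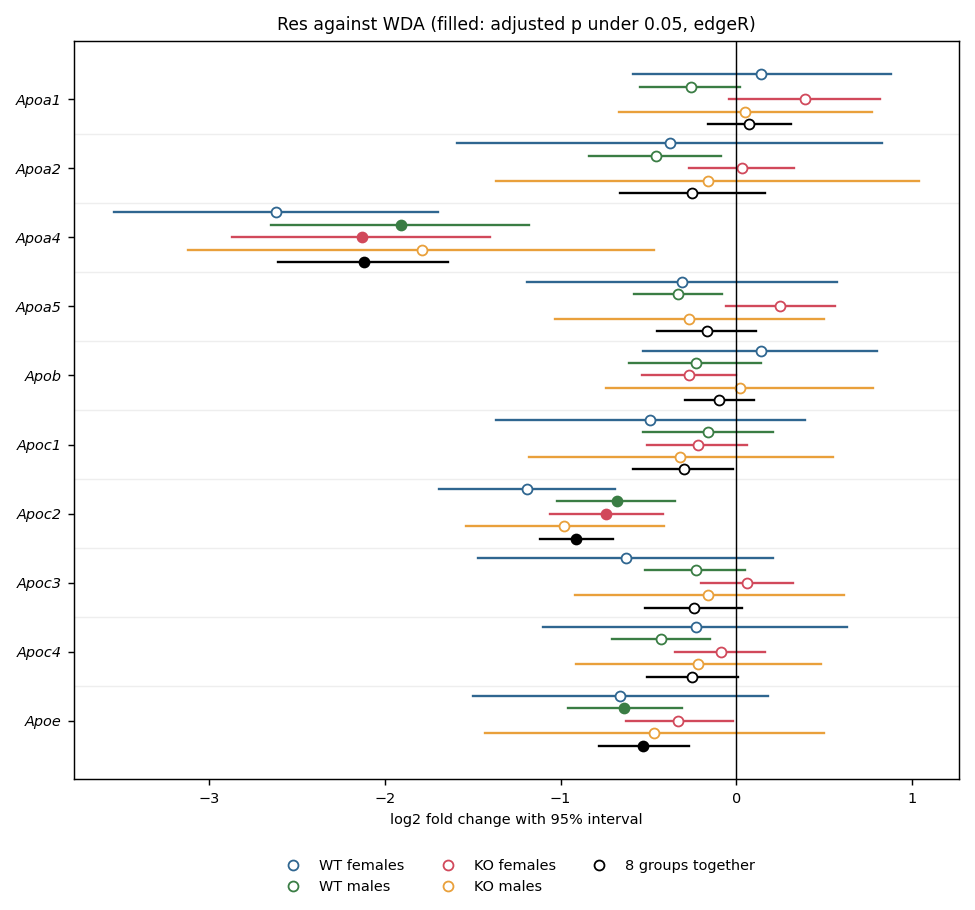
Log2 fold change of Res against WDA for each gene, with 95% intervals, in WT females, WT males, KO females, KO males and the 8 groups together; filled points have an adjusted p under 0.05. *Apoa4* lies between -2.62 and -1.79 and *Apoc2* between -1.19 and -0.68 in all 5 estimates, and the intervals of *Apoa1* include 0 in all 5.

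Markers of other cell types were read in the same fit. None of the 9 macrophage, 5 cholangiocyte or 8 stellate cell and fibroblast markers was called between stages. Of 8 hepatocyte markers, *Alb* was higher (0.47) and *Ahsg* lower (-0.58) in Res. Of 6 Kupffer cell markers, *Marco* was higher (1.42), and 2 of 5 endothelial markers, *Lyve1* (0.59) and *Pecam1* (0.28), were higher. The summed hepatocyte markers were 83680 to 135701 CPM on WDA and 108152 to 176028 CPM in Res, the stellate cell and fibroblast markers 199 to 1034 and 206 to 662 CPM, and the Kupffer cell markers 221 to 711 and 140 to 477 CPM. Their part in the differences of the members was not tested.

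Because *Apoa4* is also an intestinal protein, enterocyte markers were examined. *Fabp2*, the intestinal fatty acid binding protein, was present at 108 to 215 CPM on WDA and 47.1 to 119 CPM in Res, and was called lower in Res (-1.17, SE 0.15, adjusted p = 1.26e-05). The other 5 markers were at or near 0 in all livers, with a highest value of 3.26 CPM for *Vil1*, 1.42 for *Alpi*, 0.601 for *Sis*, 0.219 for *Lct* and 0.0567 for *Cdx2*.

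Differences of the stage effect between groups were tested as interactions. The effect differed between WT males and WT females by 0.68 on the log2 scale for *Apoa4* (SE 0.51, 95% interval -0.44 to 1.81) and by 0.48 for *Apoc2* (SE 0.25, 95% interval -0.07 to 1.03). Adjusted p was at least 0.704 for every member, and 0.0076% of genes were called. Between KO and WT, in both sexes together, the stage effect differed by -0.07 to 0.39 (*Apob* and *Apoc3*), with adjusted p = 1 for all 10 members and 0% of genes called by edgeR (2.38% at an unadjusted p under 0.05, none by DESeq2). The intervals reached from -0.62 to 1.23, so differences within these bounds were not resolved.

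KO was compared with WT within each stage and sex, which asks whether Cre delivery to floxed mice changes these genes. No member was called in any of the 4 comparisons, each fitted with its own groups, and 0% of all genes were called in each. On WDA the members' log2 fold changes ran from -0.29 to 0.26 in females and from -0.25 to 0.31 in males, with 95% intervals between -1.20 and 1.15. In females, *Apoc2* was at -0.29 (SE 0.19) and *Apoa4* at 0.26 (SE 0.36). Without WT mouse 7, whose cholangiocyte markers were high, they were at -0.14 (SE 0.12) and 0.74 (SE 0.13), not called. Leaving out mouse 7 took the members' signs in females from 7 positive and 3 negative to 2 and 8. In males, *Apoc2* and *Apoa4* were at 0.31 (SE 0.22) and 0.17 (SE 0.32). Without KO mouse 17, whose cholangiocyte markers were high, they were at 0.05 (SE 0.10) and -0.19 (SE 0.13). Leaving out this mouse took the members' signs in males from 2 positive and 8 negative to 6 and 4. Over both sexes the range was -0.14 to 0.22, with adjusted p = 1 for all members and 0% of genes called (2.89% at an unadjusted p under 0.05, and 3 genes by DESeq2). In the separate sexes, unadjusted p was under 0.05 for 3.11% of genes in WDA females and 7.71% in WDA males, and DESeq2 called 8 and 13 genes, none of them a member.

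In Res females, 9 of 10 members had a positive log2 fold change in KO, from 0.13 to 0.73, the exception being *Apob* at -0.17 (SE 0.20). The median was 0.31, beside -0.018 for all genes, of which 47.7% were positive. No member passed the adjusted test. When scaling factors were left out, the median of all genes shifted by -0.168 and 8 of 10 members were positive, and with WT mouse 12 left out all 10 were positive. By CPM the livers of KO and WT did not overlap for 5 of 10 members, higher in KO, beside 13.8% of genes: *Apoa2*, *Apoc1*, *Apoc3*, *Apoc4* and *Apoe*. By FPKM, *Apoc1* overlapped (12239 to 13363 in WT, 11977 to 14338 in KO), as did *Apoc4* (1201 to 1542 and 1355 to 1457).

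*Apoc3*, the inhibitor of lipoprotein lipase, had the smallest p in Res females. It measured 725, 819 and 1021 CPM in WT and 1218, 1250 and 1313 CPM in KO, so the lowest KO liver was above the highest WT liver. Its log2 fold change was 0.52 (SE 0.16), with an adjusted p of 0.156 in edgeR and 0.02 in DESeq2. *Apoa5*, which promotes lipolysis, had 1127, 1323 and 2178 CPM in WT and 2063, 2362 and 2820 CPM in KO, with overlap through WT mouse 1 (0.61, SE 0.25, adjusted p = 0.247). Without that mouse it was at 0.93 (SE 0.20, adjusted p = 0.0437), in a fit that called 2.68% of all genes higher in KO, against none with the mouse kept. *Apoe* measured 9355 to 12923 CPM in WT and 14120 to 14739 CPM in KO (0.35, SE 0.18, adjusted p = 0.326). For *Apoa4* the 3 KO values spread from 1004 to 2616 CPM and overlapped WT (0.73, SE 0.36, adjusted p = 0.307).

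No cell type marker passed the adjusted test in the same comparison. All 6 Kupffer cell markers were positive in KO Res females, with a median of 0.74, and 8 of 9 other macrophage markers were negative, with a median of -0.55. Both tested cholangiocyte markers were negative (median -1.51), as were 6 of 8 stellate cell and fibroblast markers (median -0.47). Hepatocyte markers were positive in 7 of 8 (median 0.17) and endothelial markers in 4 of 5 (median 0.30). WT mouse 13, with high cholangiocyte markers, belongs to this comparison, and without it *Apoc3* was at 0.50 (SE 0.17, adjusted p = 0.202) and *Apoe* at 0.26 (SE 0.15, adjusted p = 0.407). Apart from leaving out this mouse, the part of these cells in the values was not tested. In the comparison's own edgeR fit 0 of all genes were called, 19.2% had an unadjusted p under 0.05, and DESeq2 called 592 genes. With the spread shared by 9 groups, edgeR called 238 genes higher and 432 lower in KO, no member among them.

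In Res males the members ran from -0.35 (*Apoc1*, SE 0.24) to 0.29 (*Apoa4*, SE 0.52), and *Apoc3* was at -0.07 (SE 0.22). Every member's livers overlapped between KO and WT there, unadjusted p was under 0.05 for 1.45% of genes, and DESeq2 called 2 genes, no member among them. Over both sexes of Res, 8 of 10 members were positive in KO, from 0.08 to 0.51, with a median of 0.19 beside -0.008 for all genes. In edgeR's fit of these groups alone, no member and 0% of genes were called. Unadjusted p was under 0.05 for 8.06% of genes. DESeq2 called 1 gene, and edgeR with the spread shared by 9 groups called 26, no member in either.

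**Figure D4:**
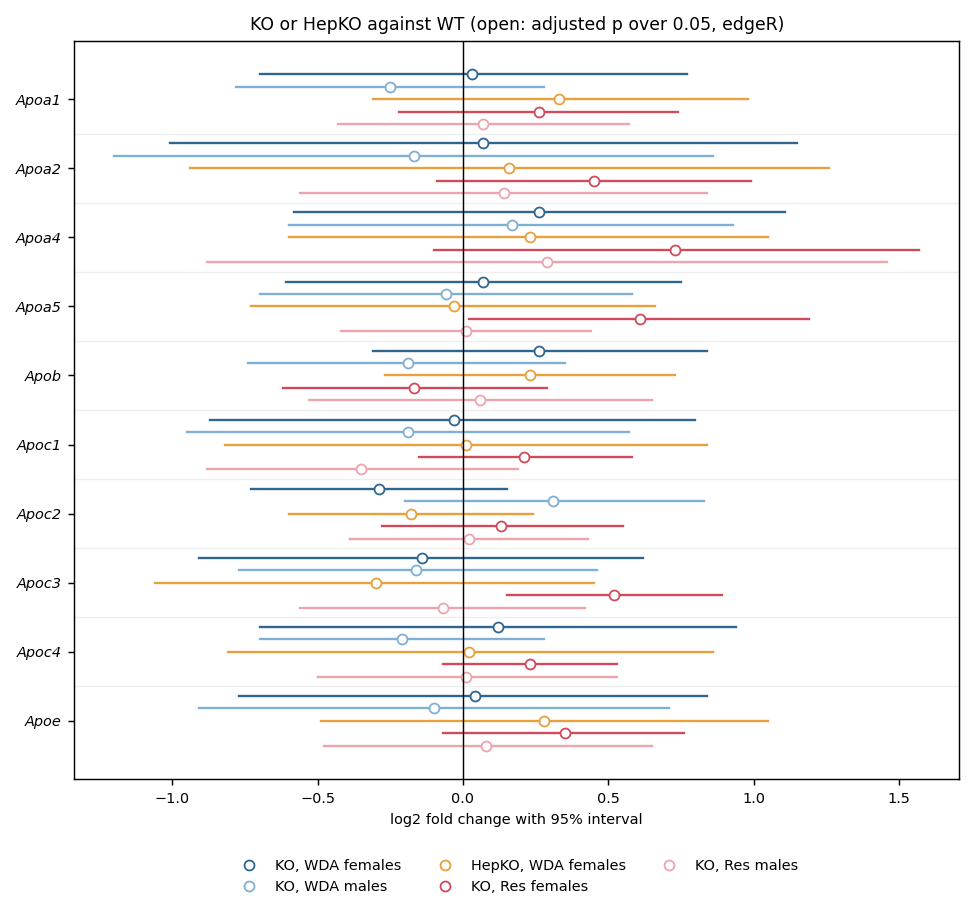
Log2 fold change of KO or HepKO against WT for each gene with 95% intervals, in WDA females, WDA males, Res females and Res males (KO) and WDA females (HepKO). No point passes the adjusted test, and in Res females 9 of 10 points lie above 0.

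HepKO females were compared with WT and with KO females on WDA. Against WT the members ran from -0.30 (*Apoc3*, SE 0.32) to 0.33 (*Apoa1*, SE 0.27), none was called, and 0% of genes were called (10.1% at an unadjusted p under 0.05, 204 by DESeq2 and 49 with the spread shared by 9 groups, no member). Against KO they ran from -0.17 (*Apoc3*) to 0.28 (*Apoa1*), with 95% intervals from -0.41 to 0.66, and 0.0162% of genes were called, no member among them. These comparisons share mice with KO against WT and are not independent of it.

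Here too mouse 7 of the WT WDA females set the outcome. Without it, HepKO had higher *Apoa4* (0.69, SE 0.11, adjusted p = 0.0137) and lower *Apoc3* (-0.60, SE 0.10, adjusted p = 0.0183) than the remaining 2 WT females, and 2.8% of genes were called. The HepKO values of *Apoa4* were 6126 to 7304 CPM, against 4278 and 4002 CPM, and those of *Apoc3* were 1018 to 1127 CPM, against 1736 and 1514 CPM. Against the same 2 WT females, KO females were at 0.74 for *Apoa4* (SE 0.13, adjusted p = 0.519) and at -0.42 for *Apoc3* (SE 0.13, adjusted p = 0.786). With 2 WT mice left, these values rest on few animals.

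The livers of WT males and females were compared at each stage. On WDA, 0.851% of genes were called between the sexes and no member. *Apoc2* had the smallest p, lower in males at 249 to 294 CPM against 335 to 432 CPM in females (-0.48, SE 0.16, adjusted p = 0.27). *Apoa1* was at 6474 to 7277 CPM in males and 3427 to 6088 CPM in females (0.44, SE 0.28, adjusted p = 0.5), and *Apob* was at 0.31 (SE 0.24, adjusted p = 0.564). How many of all genes had separate livers between the sexes was not counted. Mouse 7 of the WT WDA females gave the 3427 CPM of *Apoa1*. Without that mouse, 496 of all genes were called higher and 540 lower in males, against 66 and 39 with it. The members' signs went from 6 positive and 4 negative to 4 and 6, and their median from 0.05 to -0.16. Without scaling factors the median of all genes shifted by -0.323 in the comparison of the sexes on WDA. In Res, 0.545% of genes were called, no member among them, every member's livers overlapped, and *Apoc2* was at 0.00 (SE 0.19).

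How members varied together within groups is described over 27 libraries, each with its own depth. After group means were removed, Pearson's r of log2 CPM was 0.97 between *Apoa2* and *Apoe*, 0.92 between *Apoc1* and *Apoe* and 0.91 between *Apoa2* and *Apoc3*. The r was 0.41 between *Apoa4* and *Apoc2*, and -0.58 between *Apoa4* and *Apoa2*. Over the 22 libraries without the 5 livers, these values were 0.86, 0.60, 0.85, -0.01 and -0.58 in the same order, so the r of *Apoa4* with *Apoc2* was not seen without them.

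Mouse 7 of the WT WDA females had 1873 CPM of *Apoa2*, against 6167 and 6899 CPM in the others of its group, and mouse 17 of the KO WDA males had 2190 CPM, against 6820 and 6823 CPM. Both also had the lowest *Apoc1* (1618 and 1579 CPM), *Apoc3* (720 and 688 CPM) and *Apoe* of their groups. *Apoa4* went the other way, at 8600 and 8945 CPM the 2 highest values of all 27 livers, and so did *Apoc2*, at 432 and 433 CPM. On TMM-scaled CPM, *Apoa1*, *Apob*, *Apoc1* and *Apoe* were the lowest of their group in 5 of the 5 livers, *Apoa2* and *Apoa5* in 4. Some positions depended on the scale. By FPKM, *Apob* was the highest of its group in mouse 7 (590, against 522 and 552) and mouse 17 (636, against 503 and 530). *Apoa1* was the highest in mouse 17 (8422, against 6833 and 7628), whereas *Apoa2* stayed lowest in both mice (9165 and 9979). In the Res livers among the 5 (mice 13, 9 and 5), *Apoa1* was not the lowest by FPKM. It measured 7768, 7262 and 7515, above 7674, 6811 and 7459 in a groupmate. *Apoe* was not the lowest in mice 9 and 5 (11095 and 11381, above 9521 and 10927), nor *Apoc1* in mouse 13 (12310, above 12239). *Apob* stayed lowest by FPKM in these Res livers (542, 477 and 486). How many of all genes held such positions was not counted. *Apoa4* was the highest of its group in 4 of the 5 and the lowest in mouse 5 of the KO Res males, which had 807 CPM. *Apoc2* was the highest in 4. The livers were singled out by markers of other cells, and no test was made of them against the rest.

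**Figure D5:**
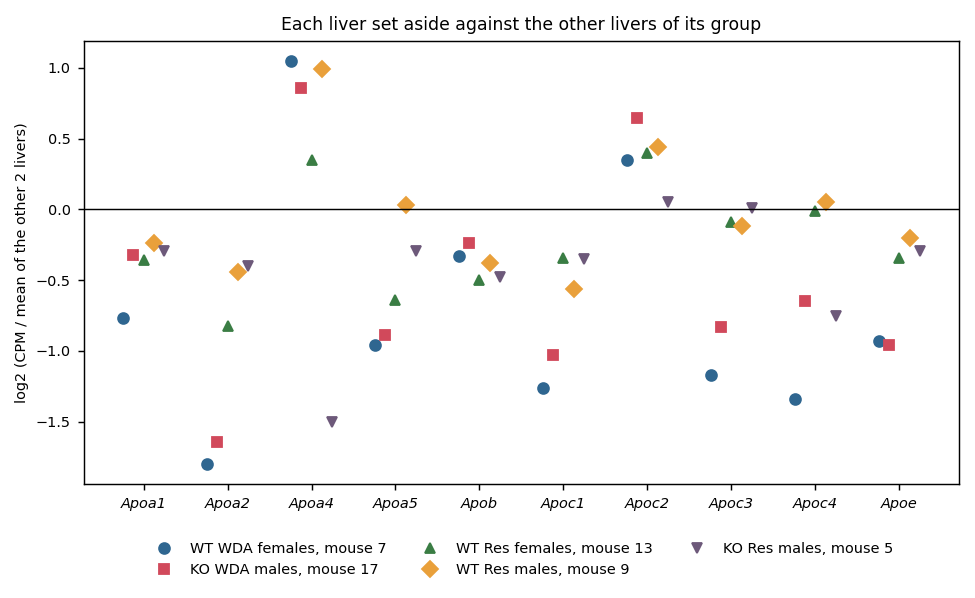
Log2 ratio of CPM in each of the 5 livers with high cholangiocyte markers to the mean of the other 2 livers of its group, for each gene. *Apoa2* lies between -1.80 and -0.40 in the 5 livers, and *Apoa4* lies above 0 in 4 of them, up to 1.05.

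The genes whose log2 CPM was most like that of *Apoa4* over the 27 libraries, among 9764 genes with a mean log2 CPM of at least 2, were *Cntnap1* (Pearson's r 0.91), *Cgref1* (0.89), *Tmem86a* (0.89), *Cd151* (0.88) and *Ctnna1* (0.88). *Apoc2* had an r of 0.88 with *Apoa4* as well. The values follow the stage in large part, and within groups r was 0.63 for *Cntnap1*, 0.61 for *Cgref1*, 0.54 for *Tmem86a*, 0.37 for *Cd151* and 0.59 for *Ctnna1*. *Cntnap1*, for example, measured 22.4 to 66.8 CPM on WDA and 4.71 to 19.9 CPM in Res.

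Other genes of lipoprotein metabolism were read from the 8-group comparison of Res with WDA, in which 16.2% of genes were called lower and 14% higher. Of 8 other apolipoprotein genes, 7 were tested, with 1 called higher and 2 lower. *Apoh*, a plasma glycoprotein, was higher (0.34, SE 0.12), and *Apool* (-0.41, SE 0.06) and *Apoo* (-0.30, SE 0.08), which despite their names belong to a complex of the mitochondrial inner membrane, were lower. Of 11 genes of lipoprotein assembly and secretion, 4 were lower and none higher, with a median of -0.10. *P4hb*, the small subunit of the microsomal triglyceride transfer protein, was at -0.68 (SE 0.08, adjusted p = 4.17e-06), *Cideb*, which adds lipid to VLDL, at -0.62 (SE 0.11) and *Tm6sf2*, also needed for VLDL lipidation, at -0.39 (SE 0.08).

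Of 8 genes of lipolysis and its control, 2 were lower and none higher (median -0.40). These were *Angptl8*, an inhibitor of lipoprotein lipase in the fed state (-0.91, SE 0.23), and *Lmf1*, needed to mature lipases (-0.39, SE 0.11). Of the receptor and uptake genes reported here, 3 were lower, among them *Vldlr*, the VLDL receptor gene, at -0.70 (SE 0.19) and the HDL receptor gene *Scarb1* at -0.47 (SE 0.10).

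Of 8 genes of HDL and cholesterol efflux, 3 were higher and 2 lower (median 0.13). The acute-phase HDL proteins *Saa2* and *Saa1* were at 2.05 (SE 0.50) and 1.73 (SE 0.42), and the exporter *Abcg1* at -0.49 (SE 0.17, adjusted p = 0.0325). Of 19 regulators of apolipoprotein genes, 2 were higher and 2 lower. *Nr1d1*, a clock repressor, was at -1.92 (SE 0.30, adjusted p = 8.39e-05), *Srebf1* of fatty acid synthesis at -1.06 (SE 0.26), and *Srebf2* of cholesterol synthesis at 0.61 (SE 0.10). In the comparison of KO with WT in Res over both sexes, none of the genes of these 6 lists was called. Positive log2 fold changes were found there for 8 of 8 genes of HDL and cholesterol efflux, 7 of 8 of lipolysis, 8 of 11 of assembly, 6 of 7 other apolipoproteins and 10 of 19 regulators, beside 48.1% of all genes.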

How the data were processed

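Liver RNA of 27 mice was sequenced, and per the labels and the study's methods clean reads were aligned with HISAT to GRCm38.p6 and with Bowtie2 to reference genes, versions and counting tool not given in the sources used here. The authors deposited expected counts (estimated reads per gene, not normalized, of which 7.34% to 8.09% per table were not whole) and FPKM (scaled by transcript length and library size) in 4 tables. Genes absent from a table were set to 0, and the 10 members were in every table. Groups came from the labels, with experiment and mouse numbers from the titles.

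Rounded counts were fitted with edgeR 4.0.16 (R 4.3.3): filterByExpr (minimum count 10), TMM, glmQLFit and glmQLFTest, Benjamini-Hochberg over all genes, threshold 0.05. Joint fits had sex and vector as terms. Fold changes were checked on simulated counts with known answers. CPM used TMM over 27 libraries. Marker sums use CPM without TMM. FPKM entered the order of levels and 1 alternative, limma 3.58.1 (trend) on log2(FPKM + 0.1). Log2 CPM used a prior count of 2.

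Other alternatives were DESeq2 1.42.0 (Wald test), RLE scaling, no filter, a spread shared by 9 groups and leaving out each mouse. Added after seeing the data were library totals without scaling factors and leaving out the 5 livers with the highest cholangiocyte marker sums. The members, gene lists and tests were chosen with earlier results of these data known. Named list genes are up to 3 per list with the largest called fold change. A member's fold change is named where it was called in its own fit or with the spread shared by 9 groups; other single fold changes, those in Res females and those without single mice among them, were named after their values were seen. The 5 genes most like the most variable member were those with the highest Pearson's r of log2 CPM. Positions and promoter windows came from RefSeq (GRCm38.p6), exons from GENCODE vM21 and primers from the study's primer list. Mice are separate animals, and with 3 per group, 3 against 3, precision rests on the spread between mice. A result for the receptor and uptake list is not reported here.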

Additional observations from a re-analysis of the deposited data

How the results depend on the processing

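The counts of called members changed as follows. With DESeq2 the count was 1 (*Apoc3*) instead of 0 for KO against WT in Res females, 2 instead of 0 for Res against WDA in WT females and in KO males, and 6 instead of 3 in WT males, where DESeq2 called 347, 79 and 1687 of all genes, against 0, 0 and 1361 in edgeR. With the spread shared by 9 groups it was 2 in WT females and 1 in KO males. Limma on FPKM and library totals without scaling factors each gave 1 in WT males, with 740 and 814 of all genes called. In WT males the library totals also turned the split of all calls from 619 higher and 742 lower to 587 and 227, with a shift of the median of all genes by 0.131. Without the 5 livers the count was 6 over 8 groups, where 2562 of all genes were called higher and 2492 lower. It was 1 in WT females, where 5 were called higher and 10 lower. Leaving out 1 mouse gave 0 to 4 members in WT males. The count was 0 without WDA mouse 20 or 21, where 203 and 106 of all genes were called. It was 4 without Res mouse 9, where 1685 were called. In WT females it was 0 to 1 (1 without WDA mouse 7, where 15 of all genes were called). For KO against WT in Res females it was 0 to 1 (1 without WT mouse 1, where 852 were called). For HepKO against WT it was 0 to 2 (2 without WT mouse 7, where 349 were called), and over 8 groups 3 to 5. Other counts kept within 1.5 times under every alternative run. Of 11 named fold changes, none reversed under any alternative. RLE scaling and no filter moved no call of the 11. Leaving out 1 mouse kept 107 of 120 results on their side of the threshold, lost 12 and gained 1. The fit with the replicate block was possible for KO females alone, where 2 mouse numbers recur in experiments 11 and 12. Numbers restart in each experiment and do not pair mice, and 2 pairs do not allow a check of pairing. With the block, on 4 libraries, 3 members were called: *Apoa4* (-2.06), *Apoc2* (-0.53) and, higher in Res, *Apoa1* (0.65). Of all genes, that fit called 1151 higher and 842 lower in Res.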
